A study of Mus musculus with 11 samples.

Results

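Adipoq, Retn, Cfd, Plin1, Cidec and Car3 are 6 genes best known from fat cells, and their RNA was followed here in mouse heart tissue. They are a list of names, drawn up with earlier results of these data known, and were matched by gene symbol to the Ensembl identifiers of the count files, where they make up 6 of 25006 genes. White adipocytes store triglyceride in a single large lipid droplet and secrete hormone-like proteins called adipokines. In the heart they lie mainly in epicardial and perivascular fat, a tissue that is sparse in mice, whereas cardiomyocytes burn fatty acids and share with adipocytes many proteins of lipid uptake and lipolysis. Adipoq (adiponectin), Retn (resistin) and Cfd (complement factor D, or adipsin) encode adipokines. Plin1 and Cidec encode coat proteins of the adipocyte lipid droplet, the first controlling access of lipases and the second promoting droplet fusion, and Car3 encodes a carbonic anhydrase abundant in fat and in slow skeletal muscle.

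The RNA came from left ventricular tissue of 11 mice, 1 sequencing library per mouse. Infarcted tissue was taken 9 days after permanent ligation of the left anterior descending coronary artery (myocardial infarction, MI), and naive tissue came from the equivalent region of uninjured hearts. Control mice are given in the sample labels as Vegfc fl/fl, a Vegfc allele that Cre recombinase can delete, and deficient mice as Vegfc fl/fl ; LysMCre, in which Cre is expressed from the Lyz2 locus in myeloid cells. Both genotypes thus carried the floxed allele, although a protocol text of the same labels describes LysMCre mice as controls, and the genotype field was followed here. The 4 groups were naive control (M44 and M45, n = 2), naive deficient (M149, M150 and M34, n = 3), MI control (M006, M38 and M40, n = 3) and MI deficient (M35, M900 and M913, n = 3). Strain and age were not given in the labels used here.

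Total counts ran from 10824989 to 26782728 per library. All levels below are CPM, the reads of a gene out of every 1000000 of its library after edgeR's TMM scaling, and 3 reads, the count below which a level is not told from 0, corresponded to 0.101 to 0.363 CPM. Vegfc itself, deleted only in myeloid cells, was at 21.9 to 45.5 CPM across all groups, which does not separate the genotypes in whole tissue. Lyz2, whose coding sequence LysMCre interrupts, read 4563 CPM in M149, a library whose label puts it among the naive deficient hearts, and 2120 and 2281 CPM in naive controls, so results of the 6 genes and counts of gene lists resting on M149 are given with and without it. The other naive deficient libraries read 72.5 CPM (M150) and 245 CPM (M34). MI deficient libraries read 1391 CPM (M35), 203 CPM (M900) and 12.4 CPM (M913), against 4536 to 5378 CPM in MI controls. Xist lay between 188 and 403 CPM in every MI library and at or under 11.8 CPM in every naive one, and the Y-linked genes ran the other way, so that sex and MI cannot be told apart in any comparison of infarcted with naive tissue. In whole tissue, fewer cells of a type and less RNA per cell cannot be told apart either.

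In the GENCODE M21 annotation of GRCm38, Adipoq (ENSMUSG00000022878) spans chr16:23146536-23158028, Retn (ENSMUSG00000012705) chr8:3655770-3660110, Cfd (ENSMUSG00000061780) chr10:79890853-79892655 and Car3 (ENSMUSG00000027559) chr3:14863512-14872523, all on the plus strand. Plin1 (ENSMUSG00000030546) spans chr7:79720218-79732903 and Cidec (ENSMUSG00000030278) chr6:113424634-113435760 on the minus strand. The stretches just before the RefSeq starts of 3 of the genes are printed because, of the genes with a promoter sequence at hand, only Plin1 held a match to the adipocyte factor motifs searched, and Adipoq and Cfd are set beside it. They are the 250 bases before the RefSeq start in GRCm38.p6, written 5′ to 3′ on the gene's strand. Adipoq lies at chr16:23146286-23146535 on the plus strand, Plin1 at chr7:79732777-79733026 on the minus strand and Cfd at chr10:79890603-79890852 on the plus strand. Capitals mark matches to TTGCNNAA, the core recognised by C/EBP factors.
Plin1: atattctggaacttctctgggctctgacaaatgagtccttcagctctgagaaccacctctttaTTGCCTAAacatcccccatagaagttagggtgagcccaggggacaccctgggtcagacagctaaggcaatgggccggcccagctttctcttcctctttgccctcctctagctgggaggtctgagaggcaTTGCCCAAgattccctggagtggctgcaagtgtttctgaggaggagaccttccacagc
Adipoq: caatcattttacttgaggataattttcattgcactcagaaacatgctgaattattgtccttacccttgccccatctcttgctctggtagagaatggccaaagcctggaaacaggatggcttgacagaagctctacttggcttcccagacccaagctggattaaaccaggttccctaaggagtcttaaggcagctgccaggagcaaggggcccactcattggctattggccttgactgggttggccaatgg
Cfd: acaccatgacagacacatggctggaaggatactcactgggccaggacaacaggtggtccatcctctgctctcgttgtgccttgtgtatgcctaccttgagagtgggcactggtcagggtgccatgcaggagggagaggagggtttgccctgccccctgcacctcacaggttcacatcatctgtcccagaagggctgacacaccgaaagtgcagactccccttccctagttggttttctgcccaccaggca

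Promoters were available for 5 of the 6 genes (all but Car3). Each was searched on both strands over 300 bases for 3 motifs, namely TTGCNNAA, the TATA box TATAAA, and a direct repeat of AGGTCA with a spacer of 1 base, the element bound by PPARG with RXRA. In Plin1 the matches TTGCCTAA and TTGCCCAA began 187 and 58 bases before the RefSeq start. The GENCODE span of Plin1 begins further upstream than this start, so that part of the printed stretch, with the second match, lies inside that span. Adipoq, Cfd, Cidec and Retn held none of the 3 motifs in this window. Of 32851 RefSeq promoters, 10.8% held TTGCNNAA, 13.6% held TATAAA and 0.0396% held the AGGTCA repeat. A match is a description of letters, not of binding.

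Most reads of the 6 genes came from infarcted tissue, where Car3 had 32 to 371 reads per library, Cfd 12 to 285 and Adipoq 10 to 201, while Plin1, Cidec and Retn stayed near the limit of 3 reads in most libraries. Over the 11 libraries together the files held 713 reads of Car3, 470 of Cfd, 327 of Adipoq, 54 of Cidec, 38 of Retn and 33 of Plin1. Of the gene and library pairs, 29 of 36 lay above 3 reads in the MI libraries and 9 of 30 in the naive libraries. These counts rest on unlike levels, since 3 reads stood for 0.101 to 0.176 CPM in MI and 0.244 to 0.363 CPM in naive libraries. Only 10.5% of tested genes had a lower mean CPM, without regard to length, than Adipoq, 12.6% than Cfd and 16.8% than Car3. Of 18 further genes listed for white adipocytes, 7 were too scarce to test, leptin (Lep), the adipokine that reports fat mass, among them at no more than 0.293 CPM. The other 11 ranged up to Fabp4, at 400 to 6110 CPM, so the list does not give a single picture of how much adipocyte RNA the tissue held.

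**Figure D1:**
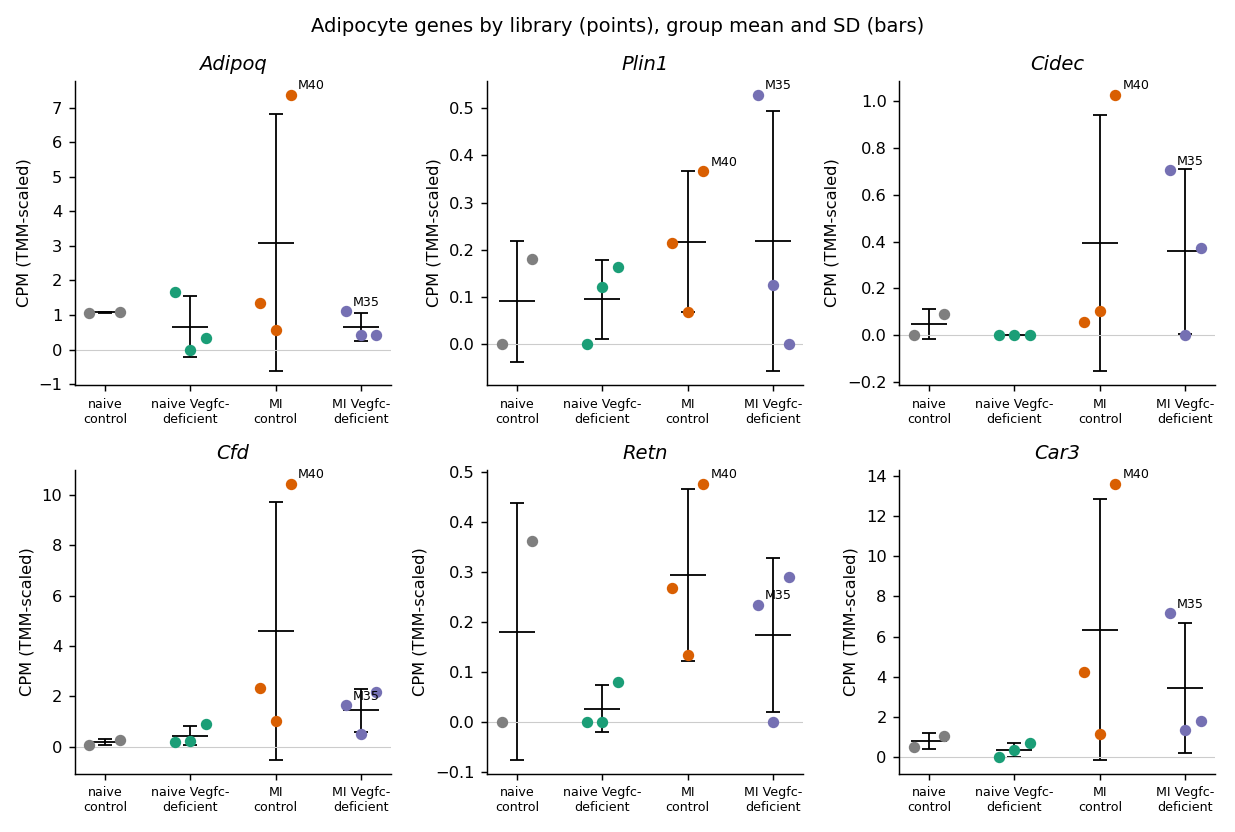
Level of each of the 6 genes (CPM, TMM-scaled) in each of the 11 libraries, coloured by group, with the group mean as a line and bars of 1 SD. MI control library M40 is the highest for every gene but Plin1, which is highest in MI deficient library M35.

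Among the adipokines, Cfd separated infarcted from naive tissue most widely in control hearts. It was at 0.0892 and 0.272 CPM in naive controls and at 2.31, 1.01 and 10.5 CPM in MI controls. Naive deficient hearts held 0.196, 0.242 and 0.895 CPM, and MI deficient hearts 1.65, 0.503 and 2.19 CPM. Every MI control lay above both naive controls, while MI deficient M900 at 0.503 CPM lay below naive deficient M34 at 0.895 CPM.

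Adipoq showed no such separation. It was at 1.07 and 1.09 CPM in naive controls, close to each other, and at 1.35, 0.575 and 7.37 CPM in MI controls. Naive deficient values were 1.67 CPM in M149, 0 in M150 and 0.325 CPM in M34, and MI deficient values 1.12, 0.419 and 0.414 CPM. MI control M38 lay below both naive controls and M40 far above them, and the deficient groups overlapped throughout. Retn, which in mice is made chiefly by adipocytes, was at 0 and 0.362 CPM in naive controls, 0, 0 and 0.0814 CPM in naive deficient hearts, 0.269, 0.135 and 0.477 CPM in MI controls and 0.235, 0 and 0.290 CPM in MI deficient hearts. Its MI and naive values overlapped in both genotypes.

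The lipid droplet genes left few reads in any group. Plin1 was at 0 and 0.181 CPM in naive controls, 0, 0.121 and 0.163 CPM in naive deficient hearts, 0.215, 0.0676 and 0.367 CPM in MI controls and 0.529, 0.126 and 0 CPM in MI deficient hearts. It was above 3 reads in 3 of 11 libraries, with no order between the groups. Cidec was absent from all 3 naive deficient libraries and reached 0.0906 CPM in 1 of the naive controls, M45. After MI it was at 0.0538, 0.101 and 1.03 CPM in controls and 0.705, 0 and 0.373 CPM in deficient hearts, so that its groups overlapped as well.

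Car3 left the most reads of the 6. Naive controls held 0.535 and 1.09 CPM and MI controls 4.25, 1.18 and 13.6 CPM. Naive deficient hearts held 0, 0.363 and 0.732 CPM and MI deficient hearts 7.17, 1.34 and 1.82 CPM. The MI values lay wholly above the naive values in both genotypes, with M38 at 1.18 CPM just above M45 at 1.09 CPM. Car3 is not particular to fat, and 10 skeletal muscle genes were checked beside it. They are chiefly genes of fast muscle, with none chosen for slow muscle, so they cannot speak to slow muscle. Their summed level was 9.42 to 15.4 CPM in naive and 9.52 to 24.7 CPM in MI libraries. Of these 10, 5 were tested, and 2 rose and 1 fell in each genotype. Over all tested genes, 26.3% were called higher and 24.1% lower in control hearts, and 30.0% and 27.7% in deficient hearts. Pvalb, the calcium buffer of fast muscle, rose by 4.51 and 5.28 on the log2 scale in control and deficient hearts (adjusted p = 0.0126 and 0.00221, edgeR's quasi-likelihood test) and Tnnt3 by 2.12 and 1.26, while Mylpf fell by 1.59 and 1.98. Pvalb was highest in M913, at 16.3 CPM, where Car3 was at 1.82 CPM, and the part of muscle in the level of Car3 was not tested.

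Per kilobase of annotated exon, the mean level in the 6 MI libraries fell in the order Cfd (3.28 ± 4.02 CPM per kb, SD, n = 6), Car3 (1.71 ± 1.69), Adipoq (1.36 ± 1.97), Cidec (0.203 ± 0.223), Retn (0.148 ± 0.101) and Plin1 (0.0468 ± 0.0427). Each neighbour in this order overlapped the next within its spread. In the 5 naive libraries Adipoq led at 0.601 ± 0.481 CPM per kb (SD, n = 5), ahead of Cfd at 0.367 ± 0.345 CPM per kb and Car3 at 0.190 ± 0.142 CPM per kb, again within their spread. The 3 scarcest genes were the same in both sets of libraries.

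Whether the genes differ between infarcted and naive tissue was tested within each genotype with the quasi-likelihood F-test of edgeR, adjusted by the Benjamini-Hochberg method across the 14779 genes that passed a filter on low counts. Adipoq, Cidec, Cfd and Car3 passed this filter. Plin1 and Retn did not, and their values come from the same fit without the filter, over 19252 genes. A gene this scarce can pass on the strength of its highest libraries alone, so the counts of called genes among the 4 are given as an account and carry no weight for the group as a whole.

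In control hearts Cfd rose after MI, from 0.181 ± 0.129 CPM (SD, n = 2) to 4.59 ± 5.12 CPM (SD, n = 3), by a log2 fold change of 4.62 ± 1.32 (SE, adjusted p = 0.0147). Cfd was the only one of the 4 tested genes past the threshold, beside 26.3% of all tested genes called higher and 24.1% called lower. Without M40 its log2 fold change was 3.14 (adjusted p = 0.0341). The call was lost without either naive control, at 4.05 without M44 (adjusted p = 0.104) and 5.59 without M45 (adjusted p = 0.0685), where the naive group holds a single library that is assumed to vary like the other groups. The ratio of pooled levels was 26.4, with a 95% exact interval of 10.2 to 97.4 that covers counting error only.

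Car3 had a log2 fold change of 2.96 ± 1.22 in control hearts, from 0.811 ± 0.390 to 6.35 ± 6.47 CPM, which missed the threshold (SE and SD, adjusted p = 0.065 by edgeR's quasi-likelihood test). It was past the threshold without M38 (3.40, adjusted p = 0.0282) or without MI deficient M35 (2.96, adjusted p = 0.0453), and at 1.72 without M40 (adjusted p = 0.226). Cidec was at 2.99 ± 2.22 (adjusted p = 0.29). Adipoq was at 1.52 ± 1.19 (adjusted p = 0.307), and at -0.19 once M40 was left out (adjusted p = 0.894). In the fit without the filter Plin1 was at 1.21 ± 1.58 (adjusted p = 0.595) and Retn at 0.70 ± 1.29 (adjusted p = 0.706). The MI control values lay wholly above the naive control values for Cfd and Car3, beside 39.1% of all tested genes.

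In deficient hearts Car3 rose after MI, from 0.365 ± 0.366 to 3.44 ± 3.23 CPM (SD, n = 3 each), by a log2 fold change of 3.14 ± 1.15 (SE, adjusted p = 0.0379 by edgeR's quasi-likelihood test). It was the only one of the 4 past the threshold there, beside 30.0% of tested genes called higher and 27.7% called lower. The call was lost without M149 (2.57, adjusted p = 0.096), without M150 (3.11, adjusted p = 0.0955) or without M35 (2.04, adjusted p = 0.144). The pooled ratio for Car3 was 7.80 (95% exact counting interval 4.37 to 15.4), against 7.95 (4.98 to 13.5) in control hearts.

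Cfd went from 0.444 ± 0.391 to 1.45 ± 0.863 CPM in deficient hearts, a log2 fold change of 1.61 ± 0.993 that missed the threshold (adjusted p = 0.185, edgeR's quasi-likelihood test), and was at 1.26 without M149 (adjusted p = 0.361). Adipoq was at -0.09 ± 1.14 (adjusted p = 0.951), and at 1.73 without M149 (adjusted p = 0.326). Cidec, with no read in the naive deficient libraries, was 3.31-fold higher after MI when the naive group was set to 3 reads in all. This ratio has no counting interval, and the test of Cidec missed the threshold (adjusted p = 0.129). Without the filter Plin1 was at 1.04 ± 1.41 (adjusted p = 0.585) and Retn at 2.22 ± 1.62 (adjusted p = 0.306). The groups were wholly apart for Car3 among the 6, beside 33.6% of all tested genes higher after MI. The other pooled ratios rest on few reads. In control hearts they were 2.99 for Adipoq (1.96 to 4.75), 9.44 for Cidec (1.58 to 384), 2.36 for Plin1 (0.555 to 21.2) and 1.62 for Retn (0.551 to 6.48). In deficient hearts they were 2.93 for Cfd (1.69 to 5.45), 0.878 for Adipoq (0.504 to 1.57), 1.89 for Plin1 (0.511 to 10.5) and 5.20 for Retn (0.756 to 224).

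**Figure D2:**
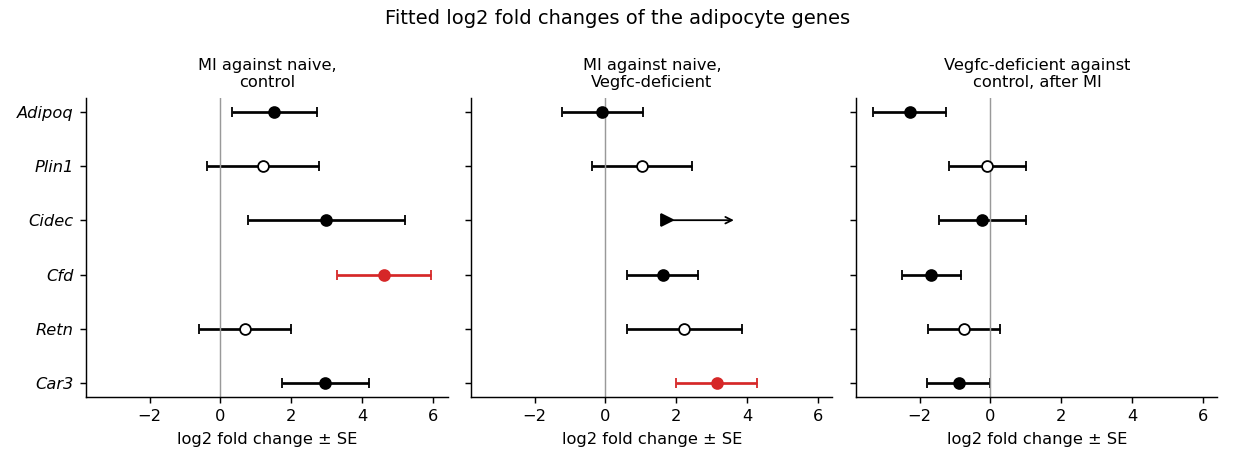
Log2 fold change of the 6 genes after MI in control hearts, after MI in deficient hearts, and in deficient against control hearts after MI, with bars of 1 SE. Red points passed the threshold (Cfd in control hearts, Car3 in deficient hearts), open points were fitted only without the filter on low counts, and the arrow starts at the lower bound for Cidec, which had no read in naive deficient libraries.

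Whether loss of Vegfc in myeloid cells went with other levels of these genes was tested after MI, in naive hearts, and as the difference between the 2 MI responses. None of the 4 tested genes passed in any of the 3 comparisons, beside 0% of all tested genes in each. Over all genes, edgeR's quasi-likelihood test gave 1173 genes at an unadjusted p under 0.05 after MI, 499 in naive hearts and 1226 for the difference in response. DESeq2 called 62, 14 and 58 genes and limma-voom 0, 6 and 0 genes, and the latter's calls held none of the 4. DESeq2 left the 4 without an adjusted p after MI, and all but Car3 without one for the difference in response, so that its calls do not bear on them there. After MI, Adipoq was at a log2 fold change of -2.28 ± 1.04 in deficient against control hearts (adjusted p = 0.626), Cfd at -1.67 ± 0.839 (adjusted p = 0.657), Car3 at -0.90 ± 0.897 (adjusted p = 0.835) and Cidec at -0.23 ± 1.23 (adjusted p = 0.977). Without M40 these were -0.57 for Adipoq (adjusted p = 0.888), -0.19 for Cfd (adjusted p = 0.96) and 0.34 for Car3 (adjusted p = 0.938). In the fit without the filter Plin1 was at -0.09 and Retn at -0.75 after MI, neither past the threshold. In naive hearts Adipoq was at -0.67, Car3 at -1.08 and Cfd at 1.34 in deficient against control, each with an adjusted p of 1.0. Without M149 these were -2.49, -0.51 and 1.70, with none past the threshold. The deficient and control values overlapped for all 6 genes, after MI and in naive hearts. The MI response of Cfd differed between genotypes by -3.01 ± 1.69 on the log2 scale and that of Car3 by 0.18, neither past the threshold (adjusted p = 0.638 and 0.983). Without M149 they were -3.37 for Cfd and -0.39 for Car3 (adjusted p = 0.494 and 0.951), and Adipoq went from -1.61 to 0.21 (adjusted p = 0.816 and 0.975). A difference between genotypes in the response of Cfd was thus not shown, and with this SE it is not shown to be absent.

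Much of the level in infarcted tissue lay in single libraries. Summed over the 6 genes, the level was 1.69 and 3.08 CPM in naive controls and 1.86, 0.726 and 2.20 CPM in naive deficient hearts. MI controls held 8.45, 3.08 and 33.3 CPM, and MI deficient hearts 11.4, 2.39 and 5.09 CPM. M40 thus carried 74.3% of the summed MI control level, 5.78 times the mean of M006 and M38, and M38 was level with the highest naive library. For single genes M40 held from 54.1% (Retn) to 86.9% (Cidec) of the MI control level. In deficient hearts M35 was the highest and M900 the lowest.

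**Figure D3:**
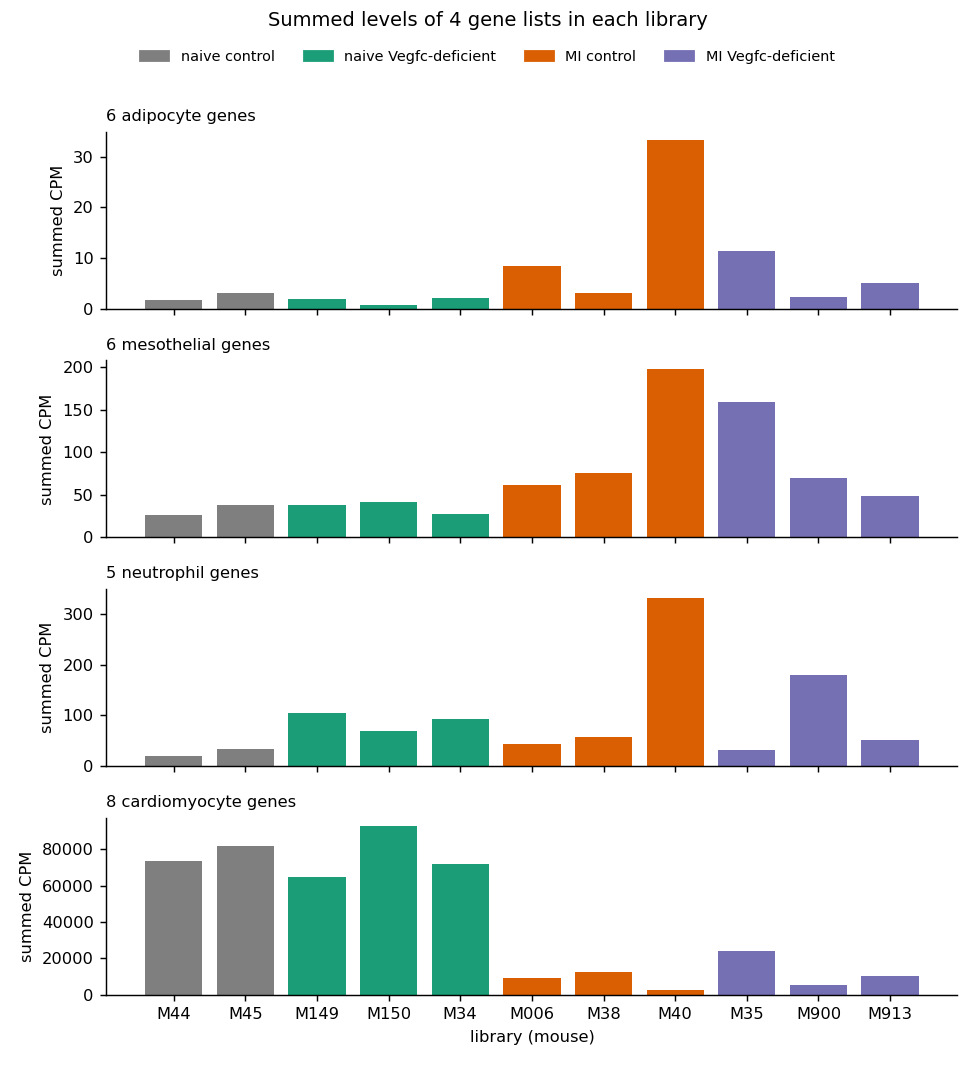
Summed level (CPM, TMM-scaled) in each library of the 6 adipocyte genes and of marker lists for mesothelial cells (6 genes), neutrophils (5 genes) and cardiomyocytes (8 genes). M40 and M35 are the highest libraries for the sum of the 6 genes and for the mesothelial sum, at 33.3 and 11.4 CPM and at 198 and 159 CPM.

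Markers of other cell types were summed beside them. The 6 mesothelial genes (Msln, Upk3b, Upk1b, Wt1, Krt19 and Lrrn4), which mark the outer cell layer of the heart, summed to 26.4 to 41.4 CPM in naive libraries. Among MI controls they summed to 62.0 CPM in M006 and 75.8 CPM in M38 but to 198 CPM in M40. Among MI deficient libraries they summed to 69.4 CPM in M900 and 48.3 CPM in M913 but to 159 CPM in M35. M40 and M35, with the highest sums of the 6 adipocyte genes, thus had the highest mesothelial sums. Between the other libraries of each MI group the order turned. There the 6 adipocyte genes summed to 8.45 CPM in M006 and 3.08 CPM in M38, and to 2.39 CPM in M900 and 5.09 CPM in M913. Of the 6 mesothelial genes, 4 were called higher after MI in control hearts and 3 in deficient hearts. Over all tested genes these shares were 26.3% and 30.0%. None of the mesothelial genes was at 0 in any library. The sum of the 18 further white adipocyte genes, which is mostly Fabp4, went the other way. It was at 5342 to 6401 CPM in naive libraries, 492 CPM in M40, the lowest of all, and 616 to 2192 CPM in the other MI libraries. Not every gene of that list did so, and Cyp2e1 was at 1.61 CPM in M40, 1.12 CPM in M35 and at most 0.7 CPM elsewhere. The 5 neutrophil genes summed to 19.8 to 104 CPM in naive libraries and also peaked in M40, at 333 CPM, but among MI deficient hearts they peaked at 180 CPM in M900, the library with the lowest sum of the 6 genes in that group. Ly6g, the defining neutrophil gene among them, never exceeded 0.407 CPM. Cardiomyocyte genes were at 64580 to 92730 CPM in naive libraries, lowest of all in M40 at 2370 CPM and highest among MI libraries in M35 at 23860 CPM. The fibroblast sum was 4748 to 6631 CPM in naive and 29850 to 47400 CPM in MI libraries, the macrophage sum 1264 to 1939 and 1741 to 4408 CPM, the blood endothelial sum 1097 to 1515 and 563 to 1203 CPM, and the lymphocyte sum 6.15 to 21.5 and 13.3 to 49.4 CPM. Haemoglobin and other red cell genes were at 1048 to 4238 CPM in naive and 297 to 1270 CPM in MI libraries, and lung epithelial genes stayed at or under 2.16 CPM. The part of any of these cell types in the levels of the 6 genes was not tested.

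To see which genes varied most like the 6 within groups, each gene's log2 CPM was taken as its deviation from its group mean and correlated with the mean deviation of the 6. The points are 11 libraries, which share depth and composition, and the coefficients are given as a description. Of 14775 genes compared, 8 reached r of at least 0.9. The 10 highest were Vat1l (0.931), Ace (0.928), 4930579K19Rik (0.928), 2200002D01Rik (0.926), Wt1os (0.922), Lrsam1 (0.914), Slc30a6 (0.909), Ppl (0.903), Vit (0.9) and Wnt11 (0.894). With the most extreme libraries, M40 and M38, left out (n = 9), their r lay between 0.786 (Ppl) and 0.881 (4930579K19Rik). Vat1l, for example, was at 3.89 CPM in M40 and 2.06 CPM in M35 and at most 0.725 CPM in every other library. Wt1os lies antisense to Wt1, and since the strand setting of the counting was not given in the sources used here, reads of the pair may not be told apart.

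The mesothelial markers had a median r of 0.631 with the 6 genes, ranging from 0.342 to 0.737, against a median of -0.041 over all genes compared. The 11 tested white adipocyte genes from outside the 6 had a median r of 0.052, with a range from -0.338 (Fabp4) to 0.884 (Cyp2e1). Among the 6 themselves the 15 pairwise r ran from 0.196 (Adipoq with Plin1) to 0.834 (Plin1 with Car3), with a median of 0.531. Without M40 the median was 0.419 and the lowest -0.016 (Adipoq with Car3). Adipoq thus took part in the lowest pair with and without M40. The list of the 10 genes also turned on single libraries, since 0 of them remained among the 10 highest without M40 and 1 without M35, although their own r without M40 stayed between 0.852 and 0.922.

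Other genes named for adipocytes, as far as they could be tested, gave a different picture from the 6. The counts of these and the following lists stand beside 26.3% of all tested genes called higher and 24.1% called lower in control hearts, and 30.0% and 27.7% in deficient hearts. Of the 11 further white adipocyte genes that could be tested, none rose while 5 fell in control and 6 in deficient hearts, with a median log2 fold change of -0.34 and -0.81 against 0.13 and 0.10 over all tested genes. Cyp2e1, among those not called, was at 2.53 and 2.49 (adjusted p = 0.211 and 0.231, edgeR's quasi-likelihood test). Fabp4, a fatty acid carrier that endothelial cells also express, was at 5016 to 6110 CPM in naive and 400 to 2078 CPM in MI libraries, a log2 fold change of -2.07 in control and -2.68 in deficient hearts (adjusted p = 0.0104 and 0.00166, edgeR's quasi-likelihood test). Thrsp, a regulator of lipid synthesis, fell from 97.7 to 188 CPM in naive to 6.20 to 20.9 CPM in MI libraries (log2 fold change -3.37 and -3.46, adjusted p = 0.000546 and 0.000207). Adig, which encodes adipogenin, a small membrane protein of fat cells, fell from 2.54 to 5.04 CPM to 0.147 to 0.470 CPM (-3.61 and -3.66, adjusted p = 0.000473 and 0.000174). Adig and Thrsp were thus higher in naive than in MI libraries. Within groups, their r with the 6 genes was 0.102 for Adig and -0.297 for Thrsp.

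Most relatives of Plin1 and Cidec fell after MI. Plin5, the perilipin of oxidative muscle, was at 100 to 169 CPM in naive and 1.28 to 21.1 CPM in MI libraries (log2 fold change -3.72 and -3.39, adjusted p = 0.00415 and 0.00384). Plin4 (-2.31 and -1.81) and the widely expressed Plin3 (-1.21 and -0.97) also fell in both genotypes. Plin2, the general droplet coat, was at 0.11 and 0.22 and missed the threshold. Cidea, at 35.7 to 61.8 CPM in naive libraries, fell by 2.55 and 2.29 on the log2 scale (adjusted p = 0.00827 and 0.008), and Cideb fell by 2.57 in control hearts (adjusted p = 0.00248) and was at -1.02 in deficient hearts (adjusted p = 0.0844).

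**Figure D4:**
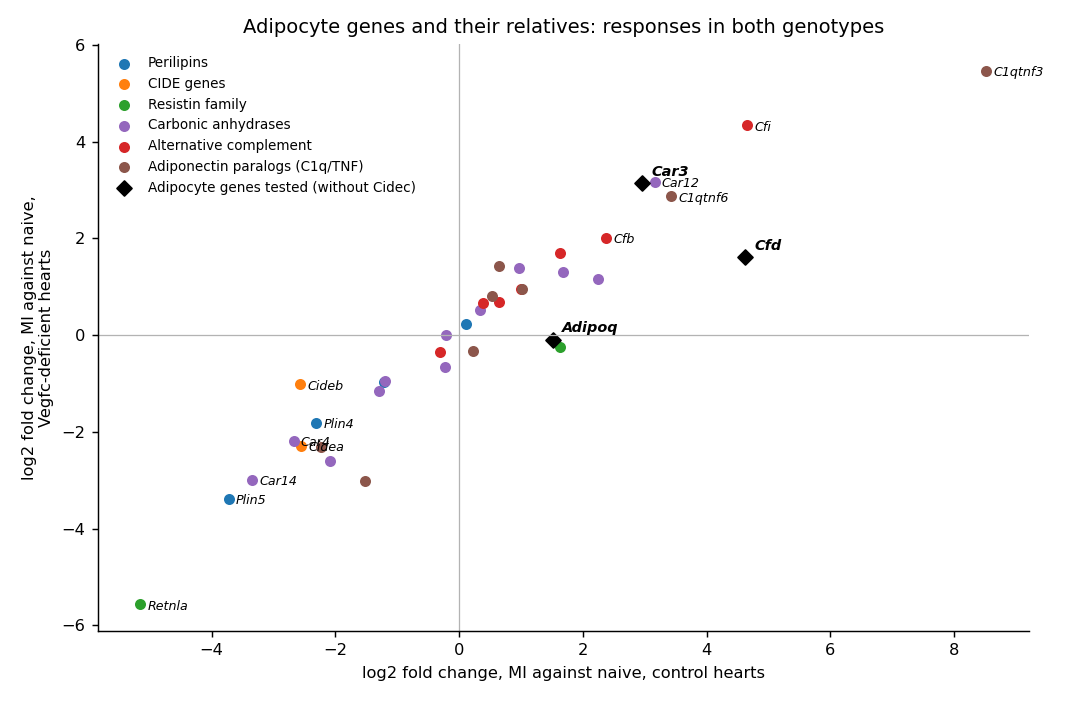
Log2 fold change after MI in control hearts (horizontal) against deficient hearts (vertical) for relatives of the 6 genes, by family, with the genes of the 6 that were tested. Retnla, at -5.16 and -5.56, is the lowest point and C1qtnf3, at 8.53 and 5.47, the highest, and Cidec is left out because it had no read in naive deficient libraries.

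Among the resistin-like genes, Retnla, a product of alternatively activated macrophages and other tissues, fell from 186 to 466 CPM in naive to 2.24 to 21.7 CPM in MI libraries (log2 fold change -5.16 and -5.56, adjusted p = 0.000973 and 0.000374). Retnlg was at 1.64 and -0.25 with neither past the threshold, and Retnlb had no read. The genes of this family resemble each other in sequence, so that reads of Retn, Retnla and Retnlg may be split uncertainly by the counting. Of the carbonic anhydrases, 13 of 16 were tested, Car3 among them, and 3 rose and 4 fell in control hearts while 4 rose and 4 fell in deficient hearts, shares close to those over all tested genes. Car14 and Car4, membrane-bound forms of muscle and endothelium, fell by 3.35 and 2.68 in control hearts (adjusted p = 0.008 and 0.0146) and were at -3.0 and -2.18 in deficient hearts (adjusted p = 0.00839 and 0.0233). Car9, induced by low oxygen, rose by 2.25 in control hearts (adjusted p = 0.00895) and was at 1.17 in deficient hearts (adjusted p = 0.0543), and Car2 was at -0.23 and -0.66 without passing. In deficient hearts Car5b rose by 1.40 and Car8 fell by 2.60 (adjusted p = 0.00246 and 0.00697).

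Cfd acts in the alternative complement pathway by cutting factor B bound to C3b, and 5 of the 8 pathway genes, Cfd counted, rose in control hearts. Also 5 rose in deficient hearts, where Cfd was not among them and where Cr1l fell under TMM scaling (log2 fold change -0.35, adjusted p = 0.0472) and was at 0.15 with total counts. Cfi, which degrades C3b, rose from 0.802 to 2.03 CPM in naive to 14.7 to 46.2 CPM in MI libraries (log2 fold change 4.66 and 4.34, adjusted p = 0.00055 and 0.000149). Cfb (2.37 and 2.02) and C3 (1.0 and 0.94) rose in both genotypes as well. C3 was at 313 to 422 CPM in naive and 516 to 1050 CPM in MI libraries.

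Adiponectin's paralogs of the C1q and TNF-related family moved in both directions, 4 up and 2 down of 8 tested in control hearts and 5 up and 2 down in deficient hearts. C1qtnf3 was at 0.446 to 5.08 CPM in naive and 113 to 429 CPM in MI libraries (log2 fold change 8.53 and 5.47, adjusted p = 0.000186 and 8.96e-05). C1qtnf6 rose by 3.42 and 2.87 (adjusted p = 0.000153 and 5e-05), and C1qtnf4 fell by 1.52 and 3.02 (adjusted p = 0.00451 and 8.11e-05). The adiponectin receptor genes Adipor1 (-0.72 and -0.91) and Adipor2 (-0.34 and -0.31) and the adiponectin-binding cadherin Cdh13 (-1.47 and -0.64) fell in both genotypes, but with total counts in place of TMM scaling Adipor2 was at 0.11 and 0.20. Lepr, the leptin receptor, was at -0.83 in control hearts (adjusted p = 0.0921) and fell by 1.34 in deficient hearts (adjusted p = 0.00836).

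The wider lipid programme was tested from lists of triglyceride synthesis, lipolysis and fatty acid uptake, adipogenic transcription factors, brown adipocytes and adipose progenitors. Of 11 genes of lipolysis and uptake, 8 fell and none rose in control hearts and 9 fell in deficient hearts, with median log2 fold changes of -1.72 and -1.69. Pnpla2, the first lipase of triglyceride breakdown, was at -2.11 and -1.69, its coactivator Abhd5 at -0.94 and -1.0, its inhibitor G0s2 at -1.72 and -2.16 and lipoprotein lipase (Lpl) at -2.72 and -2.08, each past the threshold. Lipe, hormone-sensitive lipase, was at -0.79 in control hearts (adjusted p = 0.0748) and fell by 1.06 in deficient hearts (adjusted p = 0.0143). Of 15 genes of triglyceride synthesis, 3 rose and 7 fell in each genotype, Me1 (-1.55 and -1.71) and Agpat2 (-1.09 and -1.46) among the latter and fatty acid synthase (Fasn, 1.04 and 1.46) among the former.

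Of 10 adipogenic factors 1 rose and 3 fell in control hearts and 4 rose and 3 fell in deficient hearts. Pparg, the regulator of fat cell formation and a gene that other cells of the heart express too, was at 34.2 to 73.5 CPM in naive and 18.6 to 25.5 CPM in MI libraries (log2 fold change -1.54 and -1.16, adjusted p = 0.00155 and 0.00328). Cebpa rose by 1.40 and 1.21 (adjusted p = 0.0201 and 0.0176), while Klf15 (-1.86 and -1.65) and Nr1h3 (-1.06 and -1.22) fell. Of 12 brown adipocyte genes 7 were tested, and 5 fell in control and 6 in deficient hearts, Kcnk3 (-2.94 and -2.42), Ppargc1a (-2.77 and -2.40) and Cox8b (-3.07 and -3.53) among them. These 3 are also expressed in heart muscle, and Dio2 rose in both genotypes, whereas Ucp1, the protein that defines brown fat, never exceeded 0.235 CPM. Of 8 adipose progenitor genes, 7 were tested and 2 rose in control hearts, while 4 rose and 1 fell in deficient hearts. Zfp423 (1.57 and 2.04) and Pdgfrb (0.86 and 1.28), which fibroblasts and mural cells share, rose in both. No gene of any of these lists differed between genotypes past the threshold. Without M149 each count of these lists and families in deficient hearts moved by at most 1 gene, with 3 rather than 4 receptor genes lower, 3 rather than 4 progenitor genes and adipogenic factors higher, and 4 complement genes higher and 0 lower.

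With total counts in place of TMM factors, the median log2 fold change of all genes moved by 0.446 in control and 0.497 in deficient hearts. Among called genes the share that was higher after MI went from 52.1% to 76.2% in control and from 52.0% to 75.5% in deficient hearts. Among the called genes of these lists, Adipor2 in both genotypes and Cr1l in deficient hearts were the ones whose sign turned under this scaling. The triglyceride synthesis genes then split into 6 that rose and 6 that fell in control hearts and 7 and 6 in deficient hearts, the adipogenic factors into 5 and 3 and 5 and 2, and the carbonic anhydrases into 5 and 2 and 6 and 2, while 1 of the 4 receptor genes fell in each genotype.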

How the data were processed

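RNA from 11 mouse left ventricular tissue samples, 1 library per mouse (mRNA, TruSeq Stranded), was sequenced by the authors, who deposited whole-number counts of reads per Ensembl gene. The submitters' processing notes name cutadapt 1.13, STAR, HTSeq 0.6.1p1, DESeq2 1.14.1 and the mm10 build, and the strand setting of the counting was not given in the sources used here. No further normalization of the deposited counts was found.

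Genes were named from GENCODE M21 (24942 of 25006 identifiers), which also gave exon lengths. Groups followed the genotype and treatment labels. In R 4.3.3, counts were filtered with filterByExpr by group, scaled by TMM factors and fitted in 1 edgeR 4.0.16 quasi-likelihood model of all 11 libraries (7 residual degrees of freedom). P-values were two-sided and adjusted by Benjamini-Hochberg over all 14779 genes tested, with a threshold of 0.05, and measure the spread between mice. The SE of a log2 fold change was derived from the test, as its absolute value over the square root of F. It is approximate, most of all for genes near 0 reads. The script was tested on simulated data. Pooled ratios carry exact conditional 95% intervals, and those and the limit of 3 reads cover counting error only. For likeness, log2 CPM used a prior count of 2.

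The members and lists were chosen with earlier results of these data known. Named genes were the 6, the 2 tested genes with the smallest p of each adipocyte-related list in each MI comparison, a fixed set of lipid, receptor and family genes, and the 10 most like the 6; 1 gene that this rule names is not reported here. Retnlb, Dio2, Pvalb, Cr1l, Cyp2e1, Adrb3 and Tshr were named after their values were seen. Tnnt3 and Mylpf, of the skeletal muscle list, also lay outside this rule. Alternatives were DESeq2 size factors, total counts, DESeq2 1.42.0, limma-voom (limma 3.58.1) with quality weights, no filter, a mean CPM of at least 1, the compared groups alone, and each library left out. Promoter sequences were taken from RefSeq (GRCm38.p6).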

Additional observations from a re-analysis of the deposited data

How the results depend on the processing

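Of the 4 genes tested, the number called after MI in control hearts went from 1 to 2 with total counts, where Car3 was at 3.44 (adjusted p = 0.0339), and to 2 with DESeq2, where Car3 was at 2.89 (adjusted p = 0.0173). In deficient hearts it went from 1 to 0 with limma-voom, where Car3 was at 2.32 (adjusted p = 0.165). With 1 library left out the numbers ran from 0 to 2 in control and from 0 to 1 in deficient hearts. Over all alternatives Cfd lay between 3.14 and 5.59 in control hearts (adjusted p from 0.000506 to 0.104) and Car3 between 2.04 and 4.30 in deficient hearts (adjusted p from 0.00441 to 0.165). None of the 4 was called between genotypes or for the difference in response under any alternative that gave them an adjusted p. DESeq2 gave none to any of the 4 after MI and gave one to Car3 alone for the difference in response.

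Among the 4 genes, reversed signs concerned values that had not passed. Adipoq in deficient hearts was at 0.37 with total counts and 0.73 with limma-voom, and the difference in response of Car3 at -0.11 with limma-voom. With 1 library left out, Adipoq ran from -0.19 to 1.96 in control hearts and from -0.69 to 1.73 in deficient hearts, and its difference in response from -2.21 to 0.21. Between genotypes after MI, Car3 ran from -2.0 to 0.34 and Cidec from -0.68 to 0.42. The difference in response ran from -0.93 to 1.42 for Car3 and from -0.22 to 3.61 for Cidec. The cause was not tested. Cidec did not pass the filter at a mean CPM of at least 1, in the fits of the compared groups alone, or without M40 or M35, its highest libraries, so its ranges leave these out. A fit of the compared groups alone gives no difference in response.

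Of the 10 genes most like the 6, 6 remained with a prior count of 0.5 and 0 to 7 with 1 library left out. The order per length was the same by longest transcript. No paired analysis was possible because the groups share no mouse numbers. Depth limits Plin1, Cidec and Retn most, which lay above 3 reads in 3, 3 and 6 of 11 libraries.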
